A study of Mus musculus with 4 samples.

Results

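The genes described here are the clustered replication-dependent histone genes of the mouse, read in whole thymus. Members were all probes of the bead array whose name starts with HIST1H, HIST2H, HIST3H or HIST4H, which gave 63 gene names of 31490 on the array, read by 92 of its 45281 probes. Total RNA of C57BL/6 thymus was hybridised to 4 Illumina bead arrays, 2 from miR-181d transgenic mice (called Tg-8 in the design text) and 2 from miR-181d knockin mice (KI). Every sample carries one of these miR-181d alleles, and the sources used here give neither the promoter and construction of the alleles nor the age or sex of the mice. No wild-type thymus was among the samples analysed, and each difference sets one genotype against the other. The set was selected on its differences between these arrays, its log2 values of transgenic against knockin having been seen before. The members' values, calls and shares are therefore a description with no test behind them.

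Replication-dependent histone genes encode the core histones H2A, H2B, H3 and H4, which form the nucleosome, and the linker histone H1. They lack introns, lie in clusters, and are transcribed mainly in S phase, when new chromatin is assembled. Their mRNAs end in a conserved stem-loop bound by the protein Slbp rather than in a poly(A) tail, although some copies also make polyadenylated mRNA. In the thymus, dividing immature thymocytes of the cortex are a large source of S-phase cells. The labels name an amplification kit for the labelled cRNA and not how it was primed, and the part that poly(A) tails had in these signals was not tested.

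All 63 names matched 1 gene each in a RefSeq table of mouse assembly GRCm38.p6, which lists 70 histone genes and pseudogenes in the 4 clusters. HIST1 is the large cluster on chromosome 13, HIST2 the one on chromosome 3, HIST3 the one on chromosome 11, and HIST4 the single H4 gene on chromosome 6. HIST1 held 70 of the probes, HIST2 17, HIST3 3 and HIST4 2. By class, 7 probes were for H1, 26 for H2A, 20 for H2B, 18 for H3 and 21 for H4. The coding sequences of these copies are close to one another and 23 names had more than 1 probe. A probe may therefore read several copies, and single gene names are uncertain throughout.

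Median signal per array lay between 140.5 and 145.8, and 43.5% to 46.5% of all probes exceeded the background limit of their array, set at the most common signal plus 3 SDs. The thymocyte genes Cd3d, Cd3g, Lck and Rag1 were above that limit on every array, and the brightest probe of Cd8b1 had signals of 28882.2 and 25518.0 in transgenic and 31744.9 and 30800.6 in knockin thymus. By sex-linked transcripts knockin replicate 2 came from a male and the other 3 arrays from females: the brightest Xist probe read 129.5 there against 4365.6 to 4569.8, and the brightest Ddx3y probe 3519.3 against 484.4 to 553.7. The 2 knockin arrays thus read different animals, whereas nothing states this for the transgenic ones, and spread between arrays may be partly technical. All arrays shared 1 chip, with the transgenic samples in positions A and B and the knockin samples in E and F, so genotype and place on the chip cannot be told apart. In whole tissue, more cells that hold a transcript and more of it per cell cannot be told apart either.

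Most clustered histone probes were brighter in transgenic thymus. Of the 92 probes, 16 were within background on all 4 arrays, 5 exceeded it on some arrays and 71 on all. Over all 92 probes the median difference was 0.31 on the log2 scale (transgenic minus knockin throughout), and 70 lay above 0. Among the 71 the median was 0.58, with 61 higher and 10 lower in transgenic thymus and a range from -0.35 to 1.48. The corresponding median of all 18023 probes above background on all arrays was 0.001. The same median over the 71 was 0.67 without the male array and 0.40 without transgenic replicate 2.

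The groups separated for most of these probes. Both transgenic arrays were above both knockin arrays for 48 of the 71 (67.6%), beside 15.5% of the 18023 probes. A difference over 0.5 was found for 40 (56.3%), beside 0.71%. One order of the arrays, from transgenic 2 through transgenic 1 and knockin 2 to knockin 1, held for 36 of the 71 (50.7%), beside 3.28%. That order was picked out after the values were seen.

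In the limma fit over all 45281 probes, 4 histone probes had a Benjamini-Hochberg adjusted p under 0.05, each higher in transgenic thymus. In the same fit 0.0795% of all probes passed in either direction and 0.0508% passed as higher in transgenic. The 4 probes stood for H4c4, H4c12, H4c8 and H2bc11. A further 6 probes had an adjusted p between 0.05 and 0.10, for H4c1, H4c12, H2bc13, H2bc9, H2bc21 and H2bc7, with differences from 0.89 to 1.22. The number that passed depended on the processing and on single arrays. It was 0 without background correction and with median scaling, 2 without transgenic replicate 2, and 32 without transgenic replicate 1.

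The 5 histone classes did not share this difference equally. Median differences among probes above background on all arrays were 0.92 for H4 (19 probes), 0.85 for H2B (14 probes) and 0.57 for H3 (13 probes). They were 0.30 for H1 (4 probes) and 0.01 for H2A (21 probes). H4, H2B and H3 together had a median of 0.81 over 46 probes, and in 44 of them (95.7%) both transgenic arrays exceeded both knockin arrays. For H1 and H2A together the median was 0.02 over 25 probes, and the groups separated upwards in 4 (16%). The share over all 18023 probes was 15.5%. Taken apart, H1 separated upwards in 2 of its 4 probes (50%) and H2A in 2 of its 21 (9.5%). Without the male array the class medians were 1.05 for H4, 0.87 for H2B, 0.68 for H3, 0.33 for H1 and -0.01 for H2A.

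**Figure D1:**
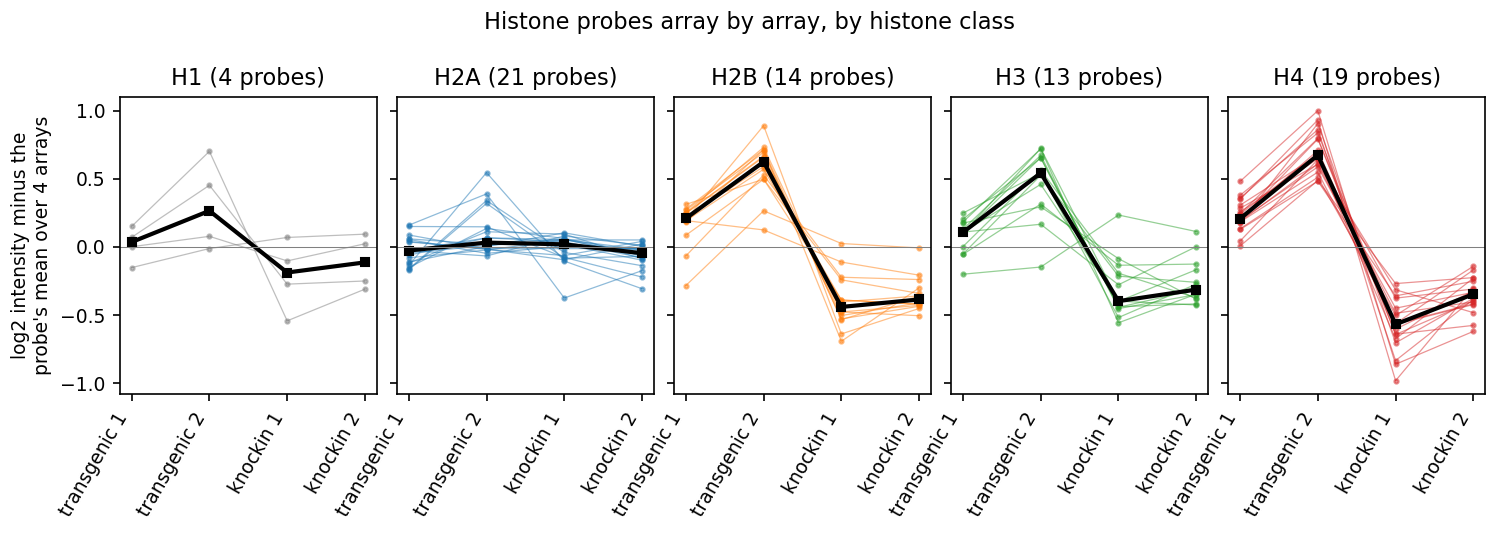
Log2 intensity of each histone probe above background on all 4 arrays, as its distance from the probe's own mean (y axis), on each array (x axis) and in 1 panel per histone class. Thin lines are probes and the black line is the class median, which for H4 runs from 0.67 on transgenic replicate 2 to -0.57 on knockin replicate 1 and for H2A stays between -0.05 and 0.03.

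H4, the core histone that pairs with H3 in the nucleosome, had the largest median difference of the 5 classes, and its 19 probes ranged from 0.49 to 1.48. H4c4 (HIST1H4D on the array) had the highest difference of all members. Its bead signal was 628.4 and 732.0 in transgenic and 261.9 and 340.5 in knockin thymus. Both transgenic values were well above both knockin values. On the normalised log2 scale this was 9.30 ± 0.37 against 7.82 ± 0.17 (SD, n = 2 each), a difference of 1.48 (SE 0.16), or 2.79-fold.

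H4c12 (HIST1H4K) had a pair of probes that read nearly the same difference. The probe that passed the fit had signals of 684.0 and 772.8 in transgenic and 336.8 and 401.1 in knockin thymus, a log2 difference of 1.22. Its other, brighter probe read 759.2 and 881.5 against 334.0 and 501.1, again 1.22. On both probes the groups stood apart, and the knockin arrays were closer together on the dimmer one.

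H4c8 (HIST1H4H) had signals of 1083.2 and 1153.8 in transgenic and 555.0 and 711.0 in knockin thymus. The groups did not overlap, and the difference was 0.98 (SE 0.13), or 1.97-fold. Without transgenic replicate 2 it was 0.80 and missed the threshold. Like every histone probe, it also missed it without background correction, at 0.90, and with median scaling. The brightest H4 probe, for H4c1 (HIST1H4A), read 3971.8 and 4393.7 against 2211.0 and 2689.4. Its groups were equally apart, with a difference of 0.89 (SE 0.13). A dimmer H4c1 probe gave 1.08, and 3 probes for H4c17 (HIST1H4M) gave 0.92, 0.93 and 1.28.

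H4 genes outside the large cluster followed the same direction. H4c14 of HIST2 had signals of 341.6 and 406.8 in transgenic and 199.4 and 249.4 in knockin thymus, a difference of 1.04. The lone HIST4 gene H4f16 had probes with differences of 0.49 and 0.64, both at signals between 155.9 and 235.6 and so close to background. In each of these 3 probes the transgenic arrays were the brighter pair. All 19 H4 probes separated the groups, and 18 of them ran from transgenic 2 down to knockin 1 in the order given above. Over all probes above background on all arrays these shares were 15.5% and 3.28%. The second probes of H4c2 and H4c8 that stayed within background on all arrays gave -0.08 and 0.10.

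**Figure D2:**
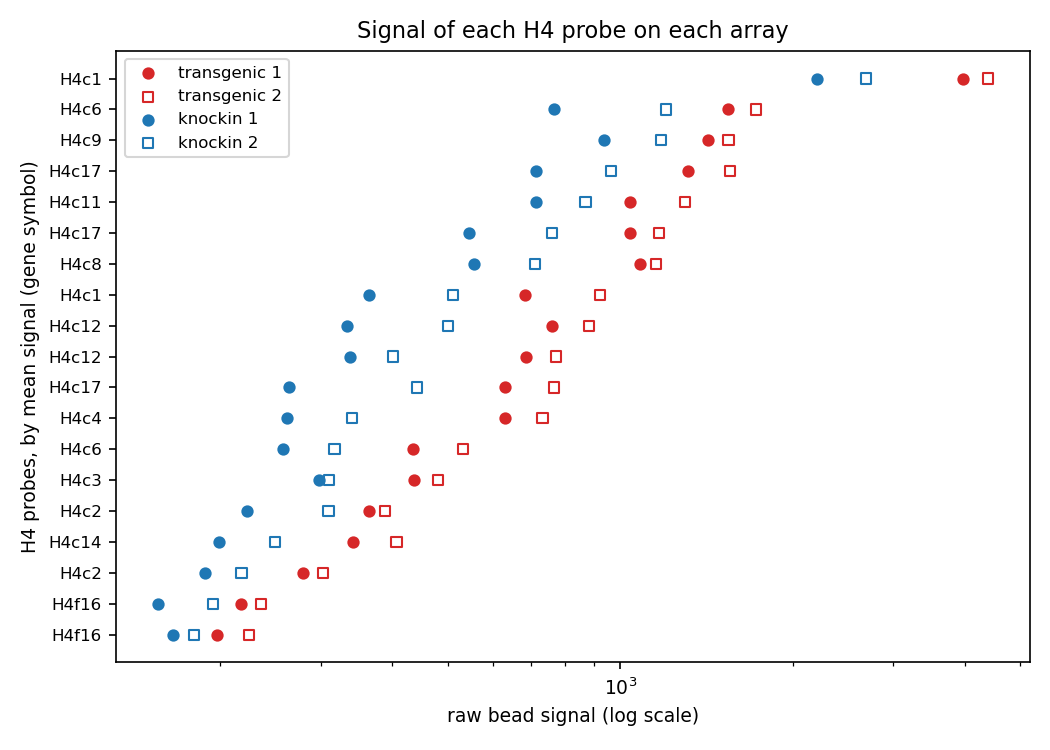
Raw bead signal (x axis, log scale) of the 19 H4 probes above background on all arrays (y axis, gene symbol, ordered by mean signal), with transgenic arrays in red and knockin arrays in blue. In every row both red symbols lie to the right of both blue ones, from H4f16 at the bottom to H4c1 at the top.

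The H4 class differed from the others in how many of its promoters held the CCAAT letters. Promoter sequence is therefore shown for H4c4, which held them, and for H4c12, which did not. Each window runs from 250 bases before to 50 bases after the annotated start and is written in the direction of the gene. Sequences are from RefSeq on GRCm38.p6, the build of that table, since the array files name none. Capitals mark the TATA letters TATAAA and the CCAAT letters, on either strand, so that ATTGG is CCAAT on the opposite strand. H4c4 lies at chr13:23581318-23581617 on the plus strand and H4c12 at chr13:21750504-21750803 on the minus strand.
H4c4: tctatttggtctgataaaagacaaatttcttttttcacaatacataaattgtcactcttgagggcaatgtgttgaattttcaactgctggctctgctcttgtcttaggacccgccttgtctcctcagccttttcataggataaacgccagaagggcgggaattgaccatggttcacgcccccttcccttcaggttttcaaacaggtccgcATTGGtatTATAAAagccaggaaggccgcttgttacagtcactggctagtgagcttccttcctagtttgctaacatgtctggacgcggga
H4c12: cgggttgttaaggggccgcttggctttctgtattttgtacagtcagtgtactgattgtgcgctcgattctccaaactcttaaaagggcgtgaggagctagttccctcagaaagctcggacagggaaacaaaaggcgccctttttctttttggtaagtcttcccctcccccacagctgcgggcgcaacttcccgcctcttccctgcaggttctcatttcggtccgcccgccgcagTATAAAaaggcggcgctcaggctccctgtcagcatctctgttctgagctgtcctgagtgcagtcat
The H4c4 window held TATAAA beginning 32 bases before the start and 1 CCAAT on the opposite strand. The H4c12 window held TATAAA 16 bases before the start and no CCAAT.

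Of 62 histone promoters in the table, TATAAA was found in 56.5%, beside 14.2% of all 27025 promoters of the same length. CCAAT was found in 3 of 12 H4 promoters (25%) and in every promoter of the other classes, that is 18 for H2A, 16 for H2B, 10 for H3 and 6 for H1. Over all promoters CCAAT was in 37.9%. The octamer letters ATTTGCAT, known from H2B promoters as a binding site of Pou2f1, were in 7 of 18 H2A and 6 of 16 H2B promoters and in none of the others, beside 1.75% of all promoters. Neighbouring H2A and H2B genes transcribed away from each other can share much of their windows, so their shares are not separate counts. The part of these elements in the differences was not tested. A match of letters is a description and not a binding site.

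H2B, which dimerises with H2A, had 13 of 14 probes with both transgenic arrays above both knockin arrays. This was 92.9%, beside 15.5% of all probes above background on all arrays. H2bc11 (HIST1H2BJ) was the H2B probe that passed the fit, with signals of 3095.5 and 3120.8 in transgenic and 1791.1 and 2049.2 in knockin thymus. Its transgenic arrays were close together and far above the knockin ones. The log2 values were 11.61 ± 0.13 against 10.80 ± 0.02 (SD, n = 2 each), a difference of 0.81 (SE 0.11), or 1.75-fold. It missed the threshold without transgenic replicate 2, at 0.71, and without knockin replicate 2, at 0.81. The same held with an offset of 16, at 0.82, and with the replicate number as a block, at 0.81. Like every histone probe, it also missed it without background correction, at 0.79, and with median scaling.

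H2bc7 (HIST1H2BF), the brightest H2B probe, read 4468.0 and 5347.4 in transgenic and 2552.4 and 3036.8 in knockin thymus, a difference of 0.91. H2bc21 (HIST2H2BE), a HIST2 gene known in human to make polyadenylated mRNA as well, read 1873.2 and 2248.2 against 1054.6 and 1216.1, a difference of 0.98. H2bc3 (HIST1H2BB), a dim probe, read 289.4 and 369.1 against 178.2 and 211.8, a difference of 1.09. All 3 had transgenic arrays above knockin arrays. The exception in the class was H2bc4 (HIST1H2BC), at 1145.0 and 1385.5 in transgenic and 1255.9 and 1428.6 in knockin thymus, where the groups overlapped and the difference was -0.02. Another 5 H2B probes were within background on all arrays.

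H3, the partner of H4, had 12 of 13 probes with transgenic arrays above knockin arrays. This was 92.3%, beside 15.5% of all probes above background on all arrays. The largest H3 difference was that of H3c6 (HIST1H3E), with signals of 3139.4 and 4014.7 in transgenic and 1762.2 and 2361.6 in knockin thymus, or 0.90. The brightest H3 probe, for H3c13 (HIST2H3B), read 5192.1 and 5200.1 against 4156.7 and 3861.8, or 0.47. Neither overlapped between groups. H3c7 (HIST1H3F) was the lowest of all 71 members at -0.35, with signals of 152.7 and 148.9 in transgenic and 174.9 and 177.4 in knockin thymus. Those signals lie just above the background limits of 145.6 to 149.4, and its 2 other probes were within background. Probes of H3c14 (HIST2H3C1) gave 0.28 on the brighter and 0.79 on the dimmer.

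H1, the linker histone, had 6 genes on the array and 4 probes above background on all arrays. H1f5 (HIST1H1B) read 284.5 and 337.0 in transgenic and 186.8 and 229.5 in knockin thymus, a difference of 0.85. H1f1 (HIST1H1A) read 177.5 and 193.7 against 148.0 and 155.1, a difference of 0.52. Both had separated groups at dim signals. H1f2 (HIST1H1C), a subtype known to be made in non-dividing cells too, had 2 brighter probes of opposite sign, -0.16 and 0.08. On the first both transgenic arrays lay below both knockin arrays, and on the second the groups overlapped. H1f3, H1f4 and the testis subtype H1f6 were at or near background.

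H2A had the median nearest 0 of the 5 classes, and its brightest probes were level between the genotypes. H2ac13 (HIST1H2AI) read 44483.4 and 43451.2 in transgenic and 44473.6 and 43820.6 in knockin thymus, a difference of 0.08. H2ac23 (HIST1H2AO) read 43355.6 and 43682.9 against 48066.7 and 51765.5, a difference of -0.10. H2ac19 (HIST2H2AA2) read 45563.2 and 43788.1 against 47924.2 and 50836.6, a difference of 0.02. In raw signal H2ac23 and H2ac19 were lower on both transgenic arrays, and after quantile normalization this held for H2ac23 but not for H2ac19.

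These H2A probes were among the brightest of the array. On each array 5 of the 10 highest signals were histone probes, and a histone probe held the highest signal on 3 of the 4 arrays. The 13 members with a mean signal over 10000 were all H2A, with differences from -0.11 to 0.08 and a median of 0.01. Of all 251 probes over 10000, none differed by more than 0.5 toward transgenic, and their range was -0.36 to 0.26. Signal at the top of the scale can fall short of the amount of transcript, and its part in the H2A values was not tested. The value of 10000 was chosen after seeing the data.

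Below 10000 the 8 H2A probes above background on all arrays had a median of 0.16 and a range from -0.09 to 0.55. The highest was a dim probe for H2ac21 (HIST2H2AB), at 495.1 and 491.1 in transgenic and 329.8 and 424.8 in knockin thymus, with separated groups. The brighter H2ac21 probe gave 0.15 and overlapped. H2ac4 (HIST1H2AB) gave 0.41, with only transgenic replicate 2 above both knockin arrays after normalization. A probe of H2ac18 (HIST2H2AA1) was above background in both transgenic arrays and in neither knockin array, but all its signals were close to the limits. They were 156.6 and 154.8 in transgenic and 143.2 and 149.1 in knockin thymus. The difference was 0.19 (SE 0.10) and did not pass the fit. Against the background limits of the knockin arrays the ratio was 1.10-fold, a value that leaves out measurement error. The brighter H2ac18 probes gave -0.01 with overlap and -0.09 with both transgenic arrays lower. Probe pairs of H2ac10, H2ac11 and H2ac12 differed in sign within -0.11 to 0.02.

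Class and brightness overlapped. With the 71 probes cut into terciles at mean signals of 572.1 and 2498, the median difference was 0.69 in the dim, 0.82 in the middle and 0.06 in the bright tercile. Of the 24 bright probes 15 were H2A, with a median of 0.01. The other bright ones were 3 H2B probes with a median of 0.81, 5 H3 probes with a median of 0.57 and 1 H4 probe at 0.89. In the dim tercile the medians were 0.89 for H4, 0.99 for H2B, 0.47 for H3, 0.29 for H2A and 0.69 for H1. All probes of the array within these signal ranges had medians between -0.001 and 0.005. These are descriptions of few probes, and no probe's level is set against another's.

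**Figure D3:**
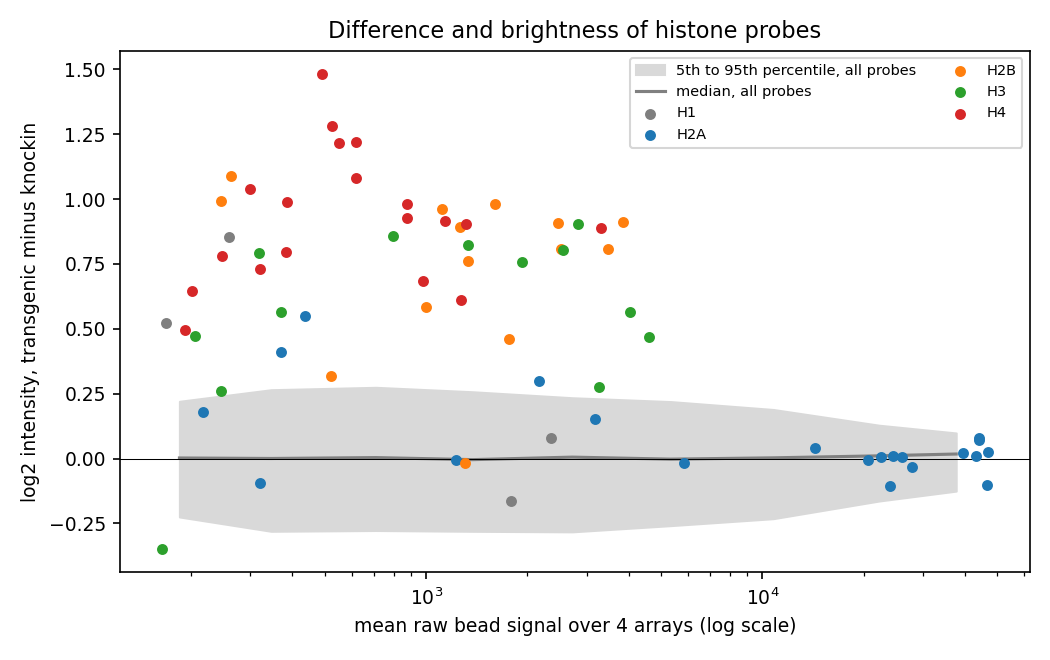
Log2 difference, transgenic minus knockin (y axis), against mean raw signal over 4 arrays (x axis, log scale) for the 71 histone probes above background on all arrays, coloured by class. The grey band is the 5th to 95th percentile of all probes at that signal and the line their median. The H2A points over 10000 sit at the right end near 0, dimmer H2A points reach 0.55, and most H2B, H3 and H4 points lie above the band.

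Divergent gene pairs allowed H2A and H2B to be set side by side. In HIST1, 6 neighbouring pairs of an H2A and an H2B gene transcribed away from each other had probes above background on all arrays. The H2B difference was the larger in 6 of 6 pairs. H2B differences ran from 0.46 to 0.96 with a median of 0.85, and H2A differences from -0.03 to 0.08 with a median of 0.02. In the pair of H2bc7 and H2ac7 the values were 0.91 and 0.01, in that of H2bc11 and H2ac11 0.81 and 0.02, and in that of H2bc13 and H2ac13 0.96 and 0.08. All 6 H2A probes of these pairs were brighter than 10000, where no probe of the array had a difference above 0.26. The H2B probes were all dimmer than that. Class and brightness thus cannot be told apart in these pairs, and their count adds nothing to the class medians.

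The promoter windows of such a pair are largely the same DNA read in opposite directions, which is why those of H2bc11 and H2bc7 are shown, with capitals as before. They lie at chr13:22042948-22043247 on the plus strand and chr13:23574158-23574457 on the minus strand of GRCm38.p6 (RefSeq).
H2bc11: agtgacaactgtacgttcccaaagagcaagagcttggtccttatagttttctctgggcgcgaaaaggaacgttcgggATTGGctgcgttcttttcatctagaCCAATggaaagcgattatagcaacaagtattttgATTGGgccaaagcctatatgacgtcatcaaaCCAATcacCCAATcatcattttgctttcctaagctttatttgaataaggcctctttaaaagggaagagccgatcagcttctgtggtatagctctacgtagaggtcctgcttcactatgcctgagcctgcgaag
H2bc7: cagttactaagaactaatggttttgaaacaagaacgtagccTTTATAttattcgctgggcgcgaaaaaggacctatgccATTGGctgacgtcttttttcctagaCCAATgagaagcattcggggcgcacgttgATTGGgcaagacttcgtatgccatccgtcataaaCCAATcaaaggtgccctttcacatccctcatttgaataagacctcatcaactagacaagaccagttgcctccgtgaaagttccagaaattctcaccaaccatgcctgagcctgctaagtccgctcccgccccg
Of the 300 bases, 252 of the H2bc11 window lie in the window of H2ac11, and 273 of the H2bc7 window in that of H2ac7. The H2bc11 window held 5 CCAAT matches, 3 on the strand of the gene and 2 on the other. The H2bc7 window held 4, with 2 on each strand.

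Clusters differed less than classes. The median difference was 0.73 over 55 HIST1 probes above background on all arrays, 0.31 over 14 HIST2 probes and 0.57 over the 2 HIST4 probes. Within HIST2 the medians were 0.07 for 7 H2A probes, 0.47 for 3 H3 probes and 0.98 for 3 H2B probes, and its lone H4 probe stood at 1.04. HIST2 had 7 H2A probes among 14 and HIST1 had 14 among 55. None of the 3 HIST3 probes exceeded background on all arrays, and their values were -0.20 for H2aw, 0.07 for H2bu2 and 0.27 for the pseudogene H2bu1-ps.

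**Figure D4:**
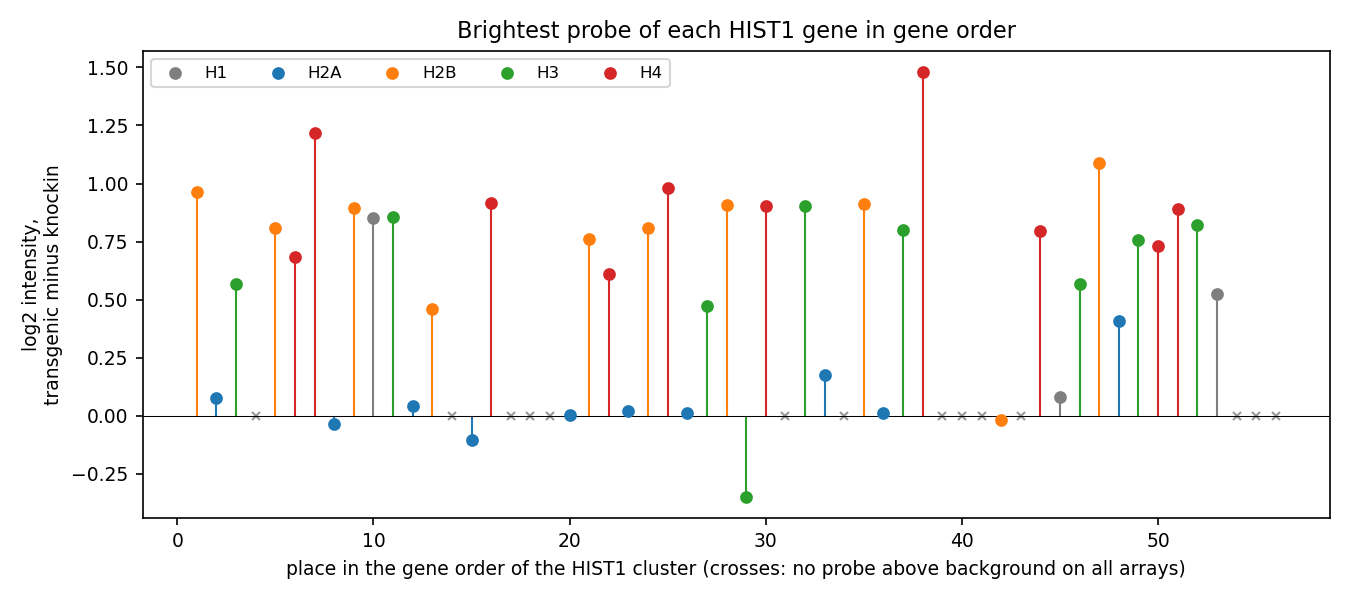
Log2 difference, transgenic minus knockin (y axis), of the brightest probe of each HIST1 gene along the gene order of the cluster (x axis, place in the order), coloured by class, with crosses for genes without a probe above background on all arrays. Most H2A genes stand near 0 between H2B, H3 and H4 genes near 0.5 to 1.5 along the order, while H2ac4 at 0.41 is high for an H2A gene and H3c7 at -0.35 and H2bc4 at -0.02 are low for their classes.

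Genes that work with the clustered histones did not show the same difference. Lists of 5 kinds, with 239 probes in all, were DNA replication, mitosis, histone gene transcription and 3′ processing, replication-independent histone variants, and histone chaperones. In the limma fit none of the 239 passed in either direction, and 15 had an unadjusted p under 0.05. Among the 177 above background on all arrays 13 did, beside 8.08% of all such probes. With knockin and transgenic arrays crossed into pairs as a block, 4 passed, all lower in transgenic.

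DNA replication genes had a median difference of -0.07 over 76 probes, with 24 higher and 52 lower in transgenic thymus. E2f1, a transcription factor of S-phase entry, read 846.2 and 670.4 in transgenic and 942.9 and 1173.5 in knockin thymus, a difference of -0.44 (limma adjusted p = 0.484). Cdt1, a licensing factor, and Mcm6, a helicase subunit, had differences of -0.43 and -0.44 (limma adjusted p = 0.60 and 0.813) on the probe with the smallest p. The brightest Mcm6 probe gave -0.05. None of the 3 probes passed, and their lowest array was transgenic replicate 2, on which H4 was highest. Summed over the brightest probe of each gene of the list, the signal was 85046.6 and 70827.3 in transgenic and 76437.5 and 102392 in knockin thymus.

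Mitosis genes had a median of -0.01 over 29 probes. The kinesin Kif23 had a difference of 0.37, the kinase Plk1 of -0.38 and the anaphase activator Cdc20 of -0.37 on the probe with the smallest p, and none passed. The brightest Cdc20 probe gave -0.15. Genes of histone transcription and 3′ processing had a median of 0.01 over 28 probes. Over the whole list, dim probes included, the smallest p belonged to probes for Fip1l1 and Sympk, of the cleavage machinery, and Casp8ap2, of the histone locus body, and none passed. Sympk had a difference of -0.22. The Fip1l1 probe (-0.36) was above background on 2 arrays only, while the brightest Fip1l1 probe gave 0.01, and the Casp8ap2 probe (0.20) was within background on all arrays.

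Replication-independent variants, whose mRNAs are mostly polyadenylated, had a median of -0.12 over 19 probes, 4 higher and 15 lower. H1f0, a linker histone of resting cells, read 204.3 and 195.8 in transgenic and 159.6 and 185.9 in knockin thymus, a difference of 0.39 (limma adjusted p = 0.710). H1f10 and H2aj had values of -0.25 and -0.19 and did not pass. The brightest H3f3a probe, for the H3 variant H3.3, gave 0.03. Chaperones had a median of -0.06 over 25 probes, and none passed. The smallest p of the list belonged to probes of Rbbp4 (-0.26), Hira (-0.21, above background on 2 arrays only) and Rbbp7 (-0.28). The brightest probes of these genes gave -0.05, -0.02 and -0.23.

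**Figure D5:**
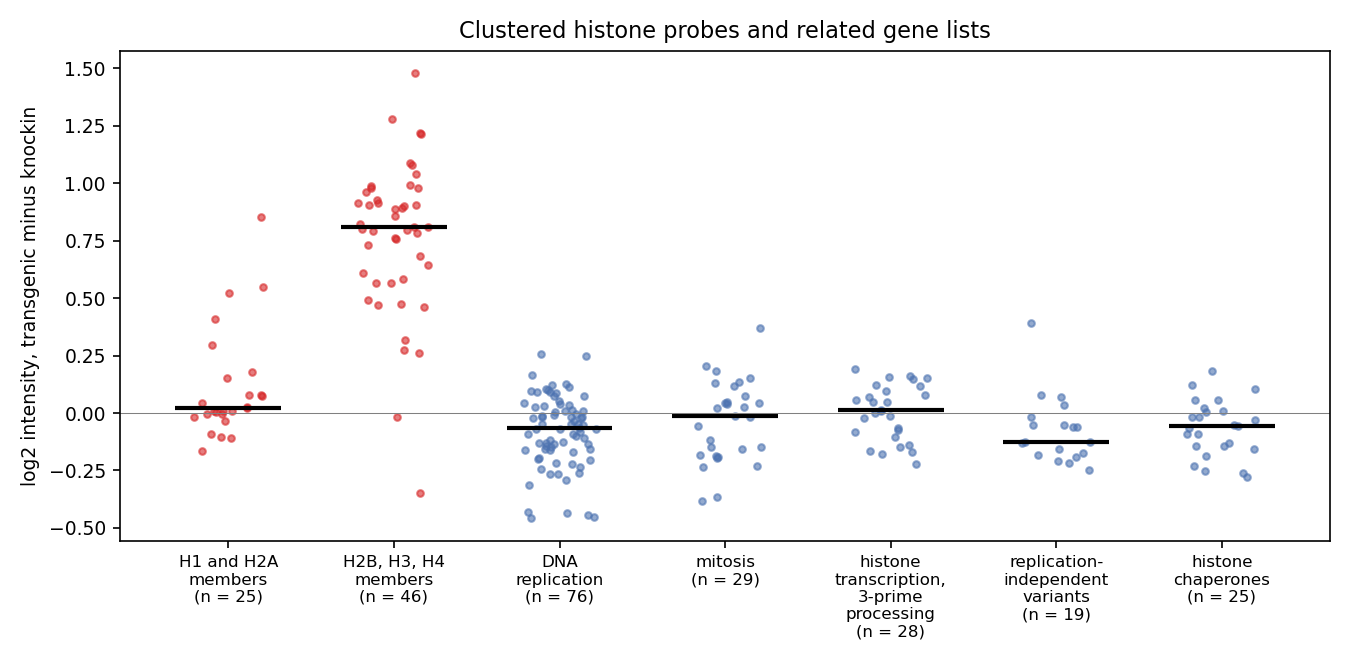
Log2 difference, transgenic minus knockin (y axis), of each probe above background on all arrays, for histone members of H1 and H2A, histone members of H2B, H3 and H4, and the 5 related gene lists (x axis), with black bars at the medians. The medians are 0.02 and 0.81 for the members and between -0.12 and 0.01 for the lists.

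Markers of other cells moved with the genotype as well. The 8 granulocyte probes above background on all arrays had a median difference of -1.16, each below 0, with S100a8, S100a9 and Camp past the threshold as lower in transgenic thymus. The signal summed over the brightest probe of each granulocyte gene was 5052.8 and 3803.3 in transgenic and 9116.8 and 11936.7 in knockin thymus. Erythroid genes had a median of -0.46 over 12 probes, none of which passed, and a summed signal of 5236.0 and 5028.2 against 6342.4 and 9011.4. Thymocyte genes had a median of -0.04 over 15 probes, none of which passed, and a summed signal of 94831.4 and 86887.5 against 98988.2 and 97418.2. Lists for B cells, macrophages, thymic epithelium and fibroblasts had medians between -0.18 and 0.04, and none of their probes passed. Their part in the histone values was not tested.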

How the data were processed

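Total RNA from whole thymus was read on 4 Illumina bead arrays, with group and replicate taken from each sample's title. Per the file headers, the deposited intensity values are average bead signals from GenomeStudio 1.9.0 without normalization, and they carry no detection p-values or control probes. The authors' value table (4 columns) was not used, since its identifiers are not paired with names.

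Intensities were background-corrected with normexp (offset 50), log2-transformed and quantile-normalised, and all 45281 probes were fitted with limma 3.58.1 in R 4.3.3 (lmFit, eBayes, two-sided, Benjamini-Hochberg, threshold 0.05), 2 arrays against 2. The offset compresses differences of dim probes, and quantile normalization removes a shift shared by all probes. The code was tested on simulated data. The background limit of an array stood 3 SDs of its lower values above its most common signal, and the number of arrays limits the precision. The ratio given for the dim H2ac18 probe set each knockin array at the higher of its own signal and that array's limit, on the normalised log2 scale. Motifs were searched on both strands of RefSeq windows (GRCm38.p6).

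Members and gene lists were chosen with earlier results of these data known. Named members are those with an adjusted p under 0.10, the brightest of each cluster and class, the 6 highest and 6 lowest differences, and genes whose probes differ in sign, and of these the text gives examples. List genes named are the 3 with the smallest p in each list and those past the threshold. H2bc4, H2ac4, H2ac13, H1f5, H1f1, H3c6, H3c14, H4c14, H4f16, H3f3a, the thymocyte genes, the HIST3 genes, the divergent pairs and the second probes were named after their values were seen. Same-numbered arrays did not deviate together (r = -0.36 over 18023 probes), so the numbers were not taken to pair samples. Alternatives were another or no background correction, other normalizations, a block, a variance trend, filters on dim probes, 1 probe per name and leaving out each array.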

Additional observations from a re-analysis of the deposited data

How the results depend on the processing

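Histone probes past the threshold numbered 4 in the fit as reported (limma), where 36 of all 45281 probes passed. They numbered 4 with cyclic loess (35 of all probes), 13 with an offset of 16 (70), and 31 with an intensity trend and robust priors (112). With the replicate number as a block 10 passed (38 of all probes), and with the brightest probe of each name 3 of 63. The number was 0 without background correction (3 of all probes) and with median scaling (2 of all probes). In these fits 47 and 46 histone probes had an unadjusted p under 0.05, beside 2108 and 1443 of all 45281 probes. Testing only probes above background on at least 1 array gave 27 of 76 histone probes, beside 80 of all 23360 tested. Testing only those above it on all 4 arrays gave 8 of 71, beside 37 of 18023. Leaving out 1 array gave 2 to 32, with 2 without transgenic replicate 2, 5 without knockin replicate 1, 12 without knockin replicate 2 and 32 without transgenic replicate 1. With crossed pairs as a block, added after seeing the data, 42 histone probes, 4 list probes and 364 of all probes passed. Every histone probe that passed under these settings was higher in transgenic thymus. The count over the related lists was 0 under each other setting.

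The median over all histone probes was 0.31, and 0.56, 0.58 and 0.47 with probes above background on at least 1 array, on all 4 and with the brightest probe of each name, because fewer probes enter. Leaving out 1 array gave 0.20 to 0.43 over all histone probes and 0.40 to 0.80 over those above background on all arrays. The medians of H4, H2B and H3 stayed within 0.70 to 1.15, 0.66 to 1.06 and 0.40 to 0.84, and the H2A median within -0.02 to 0.04, its sign turning with median scaling and without transgenic replicate 2 or knockin replicate 2. The H1 median of 0.30 became 0.43 with an offset of 16 and 0.52 with the brightest probe of each name, 0.20 without background correction and 0.19 without transgenic replicate 2. Of the 71 histone probes above background on all arrays, 13 changed sign under at least 1 of these settings other than the crossed pairs, 12 of them H2A and the other H2bc4, which gave 0.26 without transgenic replicate 1. None of the H1, H3 or H4 probes did. The replicate number as a block changed no other call than H2bc11 among the named probes that had passed. The authors' value table was not run as an alternative, since its probes could not be paired with names. Signal near background limits what dim probes can show.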

Other observations

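The spread within a genotype differed between histone classes and, within H2A, with brightness. The median difference of transgenic replicate 2 from transgenic replicate 1 was 0.46 over the H4 probes, 0.42 over H2B, 0.45 over H3, 0.26 over H1 and 0.06 over H2A. Within H2A it was 0.26 over the 8 probes at or under 10000 and 0.05 over the 13 above. Class and brightness cannot be told apart here. Between the knockin replicates the median was 0.22 over H4, 0.01 over H2B, 0.02 over H3, 0.08 over H1 and -0.07 over H2A, the second minus the first. Over all 18023 probes above background these medians were -0.003 and -0.01. For H4, H2B and H3, transgenic replicate 2 was thus the transgenic array farther from knockin. With 2 arrays in a group 1 of them always lies farther, so this direction has no meaning of its own. No cause was tested.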
